A study of Mus musculus with 6 samples.

Results

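The mRNAs of cytosolic ribosomal proteins were followed in heart RNA of 6 *Clk4*-cKO mice, of which 3 carried NEXN-S437E in an AAV vector and 3 the wild-type protein (NEXN-WT). Members were the probes whose gene symbol names a protein of the large (Rpl) or small (Rps) subunit, together with the stalk proteins Rplp0, Rplp1 and Rplp2 and with Rpsa, which gave 185 probes of 86 genes out of 27307 gene symbols on the array. Of these, 172 probes of 84 genes were tested, each of them well above background on every array of one group or of both. The other 13 probes were not: 12 were below background on all 6 arrays and the remaining probe, for *Rpl13*, was above it on 3. *Rpl37* and *Rpl10l* had no tested probe, and the 11 other untested probes belong to genes with another probe that was tested.

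All 6 mice were male, of the C57BL/6J strain, and carried floxed *Clk4* with an α-MHC-MerCreMer transgene, so that tamoxifen deleted the kinase gene in cardiomyocytes and left it in the other cells of the heart. Per the methods, tamoxifen was given at 6 to 8 weeks of age and hearts were examined 3 weeks after its first dose. The vectors were AAV9 given intravenously, at 5 weeks of age per the methods, with NEXN, a protein of the cardiac Z-disc, under a CMV promoter, which is not restricted to cardiomyocytes. In NEXN-S437E a glutamate replaces the serine that CLK4 phosphorylates, as a mimic of the phosphorylated protein, and NEXN-WT was the control. No mouse with intact *Clk4* and no mouse without a vector was on these arrays, and an age for the array hearts in particular is not given in the sources used here. The arrays were part of the question of how lasting phosphorylation of NEXN eases the heart disease of these mice.

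Cytosolic ribosomes make nearly all proteins of a cell, and their protein subunits are encoded by some of the most abundant mRNAs in any tissue. Most of these mRNAs start with a run of pyrimidines (C or T), called a 5′ terminal oligopyrimidine (TOP) tract, through which mTOR and LARP1 set their translation. A few subunits have a paralog with a restricted pattern, and the best known in muscle is *Rpl3l*, which replaces *Rpl3* in the ribosomes of heart and skeletal muscle.

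The probes of *Rpl3l* and *Rpl3* are shown because these genes have a probe each at or near opposite ends of the family's fold changes. The last 27 bases of the *Rpl3l* probe and the first 27 bases of an *Rpl3* probe, in capitals, could be laid on each other without gaps, with 20 matching and 7 different bases.
Rpl3l probe A_51_P243123: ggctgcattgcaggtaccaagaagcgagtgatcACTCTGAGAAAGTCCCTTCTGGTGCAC
Rpl3 probe A_55_P2030802: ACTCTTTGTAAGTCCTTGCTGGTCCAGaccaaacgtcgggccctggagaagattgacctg
On mm9, the build of the deposited annotation, the *Rpl3l* probe lies at chr17:24872413-24872681 and this *Rpl3* probe at chr15:79908489-79908772, and both spans are longer than the 60 bases of a probe.

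The starts of some members are shown because the TOP tract is a known feature of the family that the rule did not use. Promoter sequences from RefSeq (GRCm38.p6) were found for 65 of the 86 genes. Read on the strand of the gene, a run of at least 8 C or T reaching within 5 bases of an annotated start was present in 25 of them (38.5%), against 11.0% of all 27025 genes in the table. The sequences give 10 bases before the annotated start and 20 from it, with such a run in capitals.
Rpl7a: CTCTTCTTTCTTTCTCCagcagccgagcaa
Rpl35: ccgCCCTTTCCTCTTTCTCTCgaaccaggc
Rpl38: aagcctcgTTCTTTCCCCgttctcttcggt
Rpl22l1: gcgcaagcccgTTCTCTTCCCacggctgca
Rpl3l: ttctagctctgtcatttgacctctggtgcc
Rpl7l1: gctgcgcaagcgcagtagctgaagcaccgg
Rpl36al: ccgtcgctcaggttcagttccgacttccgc
Of the 7 paralogs in the table, 2 had such a run at an annotated start, *Rpl22l1* and *Rps27l*. The log2 fold change per gene had a median of 0.21 in the 25 genes with a run and of 0.23 in the 38 tested genes without one, which are close to each other.

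A level here is the log2 signal of a probe minus the 75th percentile of its array, and a log2 fold change is NEXN-S437E minus NEXN-WT, fitted with limma over all 22998 tested probes. The 6 arrays lay on 1 slide, with all 3 NEXN-WT arrays and NEXN-S437E 1 in slide row 1 and the other 2 in row 2. A fold change fitted with the slide row as a block therefore compares NEXN-S437E 1 alone with the NEXN-WT arrays. Between 41.9% and 47.8% of spots were well above background and no spot was saturated. NEXN-WT 1 stood apart: its 75th percentile signal was 273, against 110 to 175 on the other arrays. Once that percentile was subtracted, 41.4% of all tested probes had their lowest value on NEXN-WT 1. All 10 cardiomyocyte markers were detected. The *Nexn* probes differed by 0.02 and 0.14, and the tested *Clk4* probe by 0.13, where the unadjusted p was 0.47 or more. It is not known here whether these probes read the vector or the deleted exons.

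No ribosomal protein probe passed an adjusted p of 0.05 in limma, in either direction, and none passed a 2-fold change with an unadjusted p under 0.05. Over all tested probes 0.0304% were higher and 0.13% lower past the adjusted p, and 0.735% were higher and 1.78% lower past the 2-fold threshold. At an unadjusted p under 0.05 alone, 14 of the 172 member probes were higher in NEXN-S437E (8.14%) and 0 were lower (0 higher and 2 lower with the authors' normalized values and with quantile normalization), against 10.5% higher and 6.7% lower of all tested probes. In limma the share of higher members was thus near the background. The methods' t-test was run here on the same levels as limma, not on the authors' normalized values. It gave 26 higher (15.1%) and 2 lower (1.16%) at that threshold, against 8.5% and 5.16% of all tested probes. After adjustment it gave 0 members in both directions. The count of 14 depended on single arrays: it was 6 without NEXN-WT 1, 7 without NEXN-WT 2, 19 without NEXN-WT 3, 25 without NEXN-S437E 1, 2 without NEXN-S437E 2 and 1 without NEXN-S437E 3, while the share of all tested probes was 7.9%, 9.59%, 12.9%, 9%, 5.58% and 6.07% in the same order.

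The differences of the family were small and alike. The log2 fold changes ran from -0.33 to 0.92, and the quartiles of the probes were 0.15 and 0.28, against -0.13 and 0.29 for all tested probes. The median was 0.22 for the members and 0.09 for all tested probes, and these were -0.04 and 0.02 with the authors' normalized values and 0.16 and 0.05 without NEXN-WT 1. A positive value was found in 161 of 172 members (57 with the authors' values), while 60.8% of all tested probes had one. The groups did not overlap for 62 member probes with NEXN-S437E higher (36.0%) and for 2 with it lower (1.16%), counts that turned to 6 and 20 with the authors' values, where all tested probes gave 18.7% and 9.17% before and 13.3% and 11.7% after.

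**Figure D1:**
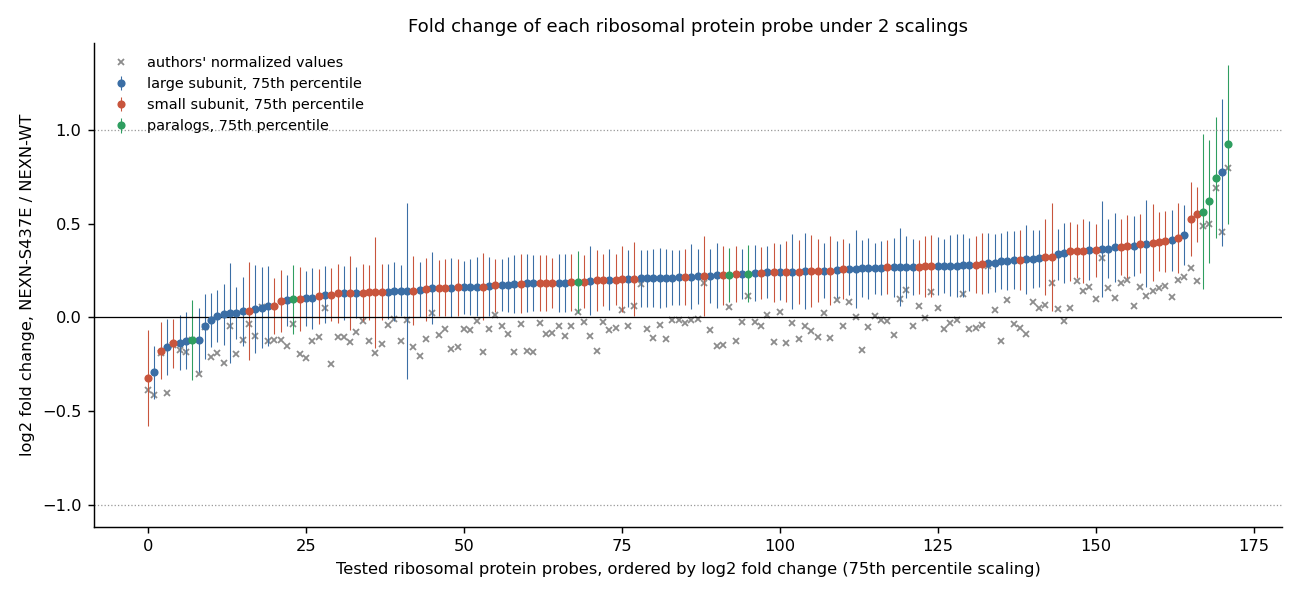
Log2 fold change (NEXN-S437E over NEXN-WT) of the 172 tested ribosomal protein probes, ordered along the x axis. Filled points with bars are the limma values ± SE after 75th percentile scaling, coloured by subunit, and crosses are the fold changes from the authors' normalized values. With the first scaling 161 points lie above 0, with the second 57, and *Rpl3l* and the lowest *Rpl3* probe lie at or near the ends under both.

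The positive direction of the family turned with the authors' values and with quantile normalization. It held with the 75th percentile over detected probes (151 positive members of 172) and with normexp background correction (140). The authors' values and quantile normalization each gave 57 positive members of 172, against 53.2% of all tested probes under both. They gave 0 members higher at an unadjusted p under 0.05, against 7.65% and 7.67% of all tested probes, and 2 lower, against 8.12% and 8.13%. Quantile normalization also gave a median of -0.04 for the members, the 75th percentile over detected probes gave 0.14 and normexp background correction gave 0.09, with 0.02, 0.01 and 0.09 over all tested probes. None of the 14 probes kept an unadjusted p under 0.05 with the authors' values or with quantile normalization.

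Signal level moved with the fold change. Among tested probes that are not members, the median log2 fold change after 75th percentile scaling was 0.04 for probes with a mean level under 2, 0.30 for a level of 6 to 7 and 0.42 for a level over 8. The ribosomal protein probes, most of which are bright, had medians of 0.03, 0.21 and 0.24 in the same bands. At a mean level of at least 5, the 135 member probes had a median of 0.22 and the 1553 other probes one of 0.30, and with quantile normalization these were -0.06 and 0.05. Under both scalings the members' median was thus the lower among these bright probes, while at levels of 2 to 4 it was the higher, at 0.18 against 0.11 (0.08 against 0.02 with quantile normalization). No test of this difference was made, and the part of signal level in the result was not tested.

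**Figure D2:**
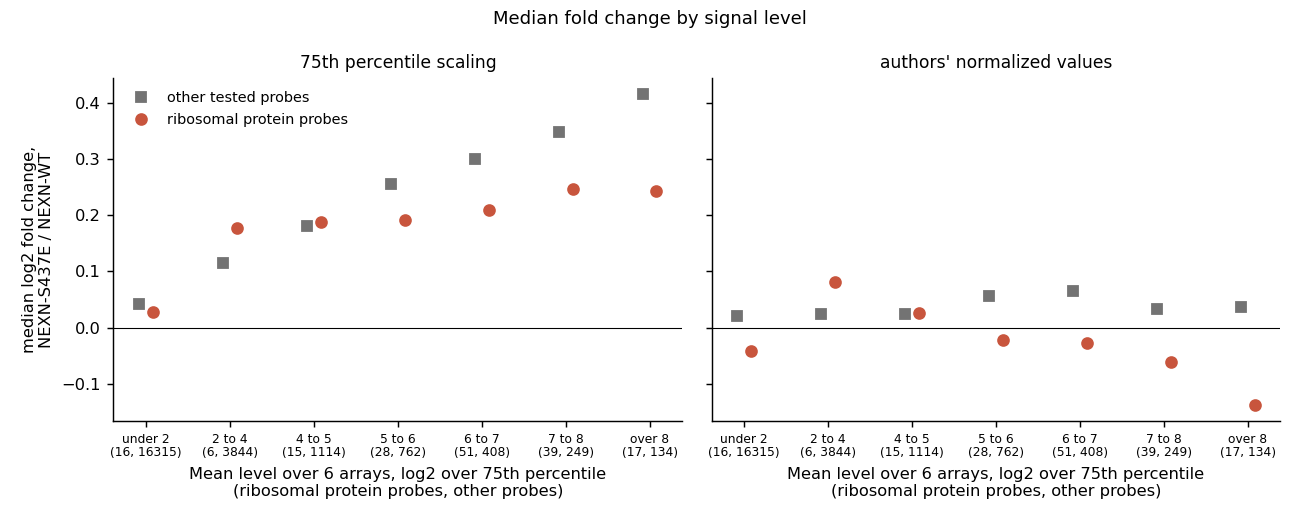
Median log2 fold change (y axis) of ribosomal protein probes (circles) and of the other tested probes (squares) in bands of the mean level over the 6 arrays (x axis, with the numbers of both kinds of probe), after 75th percentile scaling (left) and with the authors' normalized values (right). At levels over 8 the medians are 0.24 for the members and 0.42 for the others on the left, and -0.14 and 0.04 on the right.

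By array, the members' median deviation from each probe's own mean over the 6 arrays was -0.24, -0.08 and 0.01 in NEXN-WT 1, 2 and 3, and 0.08, 0.15 and 0.11 in NEXN-S437E 1, 2 and 3. NEXN-WT 1 was the lowest of the 6 arrays for 110 of the 172 probes. In the authors' table these medians were 0.08, 0.00 and -0.01 in NEXN-WT and -0.06, 0.02 and 0.01 in NEXN-S437E, so that the groups overlapped and NEXN-WT 1 was the highest array. Within slide row 1, NEXN-S437E 1 minus the mean of the NEXN-WT arrays had a median of 0.18 over the members and 0.11 over all tested probes.

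Markers of several cell types differed between the groups after 75th percentile scaling. Of all tested probes 10.5% were higher and 6.7% lower at an unadjusted p under 0.05. The summed level of the cardiomyocyte markers (19 tested probes, 8 higher and 0 lower at an unadjusted p under 0.05) ran from 2168 to 2885 times the 75th percentile in NEXN-WT and from 3393 to 3570 in NEXN-S437E. That of the fibroblast and matrix markers (17 tested probes, 0 higher and 16 lower) ran from 713 to 1259 in NEXN-WT, with the highest value on NEXN-WT 1, and from 483 to 519 in NEXN-S437E. The T cell markers (9 tested probes, 0 higher and 7 lower) summed to between 3.77 and 5.67 in NEXN-WT and between 1.73 and 2.13 in NEXN-S437E. The NK and cytotoxic markers (4 tested probes, all lower) summed to between 4.63 and 10.3 in NEXN-WT and between 1.36 and 1.6 in NEXN-S437E. The B and plasma cell markers (3 tested probes, 2 lower) summed to between 0.911 and 1.13 and between 0.445 and 0.509 in the same order. Among the defining genes of these lists, *Cd79a*, *Ms4a1*, *Klrb1c* and *Ncr1* were below background on every array. The sums of the macrophage, endothelial and erythrocyte markers overlapped between the groups, and the erythrocyte sum was 717 on NEXN-S437E 1 against 67.9 to 258 on the other arrays. With the authors' values 3 cardiomyocyte probes were higher and 0 lower, and the median log2 fold change of that list fell from 0.42 to 0.18. The fibroblast, T cell, NK and B cell lists had 17, 6, 4 and 2 lower probes with those values. The shares of all tested probes were then 7.65% higher and 8.12% lower. In RNA from whole myocardium fewer cells of a type and less RNA per cell cannot be told apart, and the part of these cells in the values of the ribosomal proteins was not tested.

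Both subunits had the same median. For the large subunit without paralogs (96 tested probes of 46 genes), 5 probes were higher (5.21%) and 0 lower at an unadjusted p under 0.05 and the median was 0.21. For the small subunit (67 tested probes of 31 genes), 8 were higher (11.9%) and 0 lower, and the median was also 0.21. The shares of all tested probes were 10.5% and 6.7%. Both medians were -0.05 with the authors' values, and the only probes past an unadjusted p of 0.05 were 2 lower ones, both of *Rpl3*.

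*Rps29*, a small zinc-binding protein in the head of the small subunit, had the smallest p of the family. Its probe A_55_P1983149 read 7.50, 7.79 and 7.49 in NEXN-WT and 8.19, 8.13 and 8.12 in NEXN-S437E, with no overlap. The log2 fold change was 0.55 ± 0.15 (SE), with an adjusted p of 0.16 in limma (unadjusted, 0.0059). Over the alternatives the adjusted p ran from 0.083 to 0.57 and the log2 fold change from 0.19 to 0.65, with 0.19 from the authors' values. The other tested *Rps29* probes gave 0.25 and 0.31. The annotation places all 3 of them on chr2, at chr2:172335003-172335062 for the first, while a further probe on chr12 was below background, so which copy of the gene they read is uncertain.

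*Rps20*, also in the head of the small subunit, showed how probes of one gene can differ. Its probe A_55_P2121543 read 6.57, 6.50 and 6.48 in NEXN-WT and 6.65, 7.37 and 7.11 in NEXN-S437E. NEXN-S437E 1 lay just above the control arrays and the other arrays of its group well above them. The log2 fold change was 0.52 ± 0.20 (SE, adjusted p = 0.25 in limma) and 0.13 with the slide row as a block. A further probe that overlaps it gave 0.36, and the third, outside that overlap at chr4:3758777-3758836, gave -0.14. The 55 bases that the overlapping probes share are shown because they differ at 2 positions, in capitals, counted from 1 at the 5′ end (T45A and G52A, the base of A_55_P2121543 first).
A_55_P2121543: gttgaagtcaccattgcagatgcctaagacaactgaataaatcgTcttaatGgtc
A_55_P1977422: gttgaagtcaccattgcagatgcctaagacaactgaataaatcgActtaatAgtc

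The 14 probes higher at an unadjusted p under 0.05 belonged to 12 genes, and their adjusted p ran from 0.16 to 0.29. Among them were *Rpl31*, *Rpl36*, *Rps3*, *Rps25* and *Rps28*, which were chosen after their values were seen. The groups did not overlap for 13 of these 14 probes, the exception being *Rpl36al*. Since the 14 were picked by the p of the same values, this count is no further support. *Rpl35*, next to the peptide exit tunnel, read 5.88, 6.08 and 6.08 in NEXN-WT and 6.24, 6.60 and 6.52 in NEXN-S437E, a log2 fold change of 0.44 ± 0.16 (SE) that was 0.21 with the authors' values. For *Rps25*, a small subunit protein needed by several viral internal ribosome entry sites, both probes past that threshold were higher, by 0.40 and 0.37. Over the 14 probes the log2 fold changes from the authors' values ran from 0.05 to 0.69.

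*Rpl38*, a large subunit protein known for its part in the translation of Hox mRNAs, depended on 1 array. Its probe read 6.63, 8.16 and 8.25 in NEXN-WT and 8.49, 8.43 and 8.44 in NEXN-S437E. All NEXN-S437E values lay above all NEXN-WT values, and NEXN-WT 1 lay far below the rest. The log2 fold change was 0.77 ± 0.39 (SE, adjusted p = 0.35 in limma). It was 0.45 with the authors' values, 0.25 without NEXN-WT 1 and 1.06 without NEXN-WT 3.

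*Rpl3l*, the muscle paralog of a protein that reaches close to the peptidyl transferase centre, had the largest log2 fold change of the family. *Rpl3l* read 2.71, 4.38 and 4.45 in NEXN-WT and 4.87, 4.73 and 4.70 in NEXN-S437E. The groups did not overlap, but NEXN-WT 1 was far below the other control arrays. The log2 fold change was 0.92 ± 0.43 (SE), a 1.89-fold difference, with an adjusted p of 0.31 in limma (unadjusted, 0.062). Without NEXN-WT 1 it was 0.35, where the adjusted p was again 0.31 (unadjusted, 0.029). It stayed positive under every alternative that was run, between 0.35 and 1.22, with 0.79 from the authors' values and 1.03 with the slide row as a block, and the adjusted p ran from 0.20 to 0.55.

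*Rpl3*, the form found in most tissues, had a probe second to that of *Rps24* among the lowest log2 fold changes, and its other probes lay nearer to 0. Probe A_66_P126077, at chr15:79912877-79912936, read 3.69, 3.56 and 3.75 in NEXN-WT and 3.51, 3.31 and 3.31 in NEXN-S437E, with no overlap. It gave -0.29 ± 0.14 (SE, unadjusted p = 0.074, adjusted p = 0.33 in limma), and its value was negative under every alternative that was run, between -0.42 and -0.16, where the adjusted p ran from 0.17 to 0.71. Probe A_55_P2030802, whose sequence is shown above, read 6.33, 6.18 and 6.29 against 6.30, 5.98 and 6.04, and gave -0.16. The third probe read 5.93, 5.96 and 5.97 against 6.12, 5.91 and 5.90 and gave 0.02. From the authors' values the 3 probes gave -0.41, -0.40 and -0.20, of which the first (unadjusted p = 0.017, adjusted p = 0.23) and the second (0.042 and 0.30) passed the unadjusted threshold.

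A scaling that shifts a whole array cancels in the difference between 2 genes on the same array. *Rpl3l* minus the mean of the 3 *Rpl3* probes was -2.61, -0.85 and -0.89 in NEXN-WT and -0.44, -0.34 and -0.38 in NEXN-S437E. Every NEXN-S437E array thus lay above every NEXN-WT array, by a mean of 1.06 on the log2 scale. Without NEXN-WT 1 the difference was 0.48, and with the authors' values it was 1.13. With 3 arrays against 3 an exact permutation test cannot give a two-sided p below 0.1, so none is given. Both genes have a probe at or near opposite ends of the fold changes of these same values, so the separation is no independent support. The difference concerns the balance of both genes and does not say which of them moved.

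**Figure D3:**
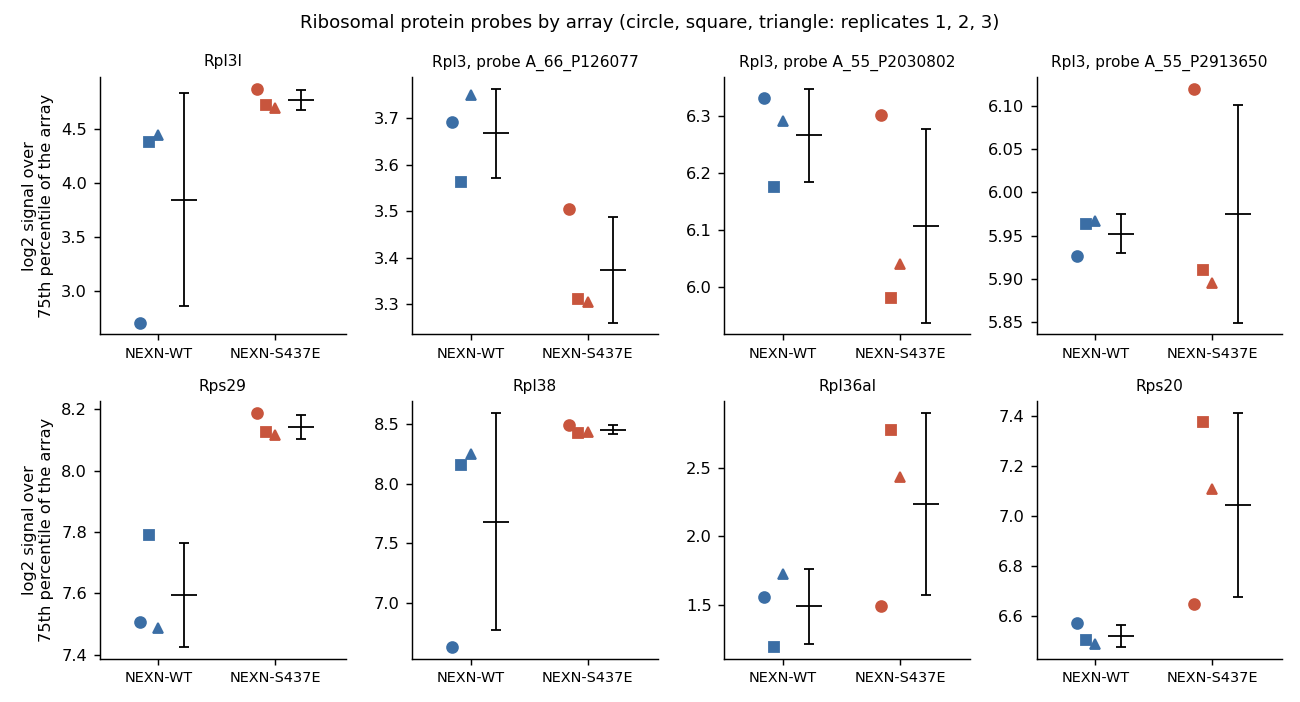
Level of 8 ribosomal protein probes (y axis, log2 signal over the 75th percentile of the array, with a scale of its own in each panel) in the 3 NEXN-WT and 3 NEXN-S437E arrays. Symbols are single arrays and bars are the mean ± SD (n = 3 arrays). *Rpl3l* and *Rpl38* show NEXN-WT 1 far below the other arrays, *Rps29* shows groups that do not overlap, and *Rpl36al* and *Rps20* show NEXN-S437E 1 (circle) near the control arrays; with the authors' values the *Rps29* difference falls from 0.55 to 0.19.

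The other paralogs overlapped between the groups for all but 1 probe, of *Rps27l*. *Rpl36al*, which encodes a near copy of *Rpl36a*, had probes at 0.74 and 0.23. The first read 1.55, 1.19 and 1.73 in NEXN-WT and 1.49, 2.78 and 2.43 in NEXN-S437E, so that NEXN-S437E 1 lay among the controls. Its log2 fold change was 0.74 ± 0.32 (SE, adjusted p = 0.29 in limma), 0.00 with the slide row as a block, 1.12 without NEXN-S437E 1 and 0.47 without NEXN-S437E 2.

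*Rps4l*, a copy of the X-linked *Rps4x*, read 2.88, 4.07 and 3.23 against 4.34, 3.55 and 4.15, with overlap and a log2 fold change of 0.62 (adjusted p = 0.36) that was 0.36 without NEXN-WT 1, 0.96 without NEXN-WT 2 (unadjusted p = 0.010) and 0.85 without NEXN-S437E 2 (0.039). *Rpl39l*, known from the testis, was dim and well above background on 5 arrays, at 0.56 with overlap. It gave 0.13 without NEXN-WT 1, 0.98 without NEXN-WT 2 (unadjusted p = 0.029) and 0.30 without NEXN-S437E 1. *Rpl22l1* and *Rpl7l1* lay at 0.10 and -0.12, and both changed sign when single arrays were left out (-0.07 to 0.24 and -0.27 to 0.04). The 2 probes of *Rps27l*, a p53 target, lay at 0.23 (0.16 to 0.31) and 0.19 (0.06 to 0.28). Over the 9 tested probes of the paralogs 1 was higher (11.1%) and 0 lower at an unadjusted p under 0.05, against 10.5% and 6.7% of all tested probes, with a median of 0.23 (0.12 with the authors' values). Over the 20 tested probes of their core partners 0 were higher and 0 lower, with a median of 0.14 that turned to -0.14 with the authors' values and was 0.09 without NEXN-S437E 2.

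The core partners other than *Rpl3* ran from -0.14 to 0.29, from -0.24 to 0.27 with the authors' values and from -0.21 to 0.40 when single arrays were left out. The single tested probes of *Rpl10* and *Rpl22* gave 0.26 and 0.09. The probes of *Rpl7* gave 0.14, 0.16 and 0.29, those of *Rpl36a* 0.02, 0.03 and 0.17, those of *Rps4x* 0.21 and 0.18, and those of *Rps27* 0.28 and 0.23. The 5 probes of *Rpl39*, which lines the exit tunnel, ran from -0.14 to 0.18. None of these probes had an unadjusted p under 0.05. Within an array, the difference between paralog and partner overlapped between the groups for the 6 measured pairs other than *Rpl3l* and *Rpl3*.

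The stalk proteins, which bind the elongation factors, were represented by 8 tested probes of *Rplp0*, *Rplp1*, *Rplp2* and *Rpl12*, of which 1 was higher (12.5%, against 10.5% of all tested probes) and 0 lower at an unadjusted p under 0.05. This was an *Rplp1* probe that read 6.86, 6.97 and 7.04 in NEXN-WT and 7.25, 7.29 and 7.32 in NEXN-S437E, with no overlap. Its log2 fold change was 0.34 ± 0.13 (SE, adjusted p = 0.26 in limma) and 0.05 with the authors' values. The other *Rplp1* probes gave 0.15 and 0.18, *Rplp0* gave 0.24 and *Rplp2* gave 0.22. The median of the stalk was 0.19, fell to 0.09 without NEXN-WT 1 and turned to -0.13 with the authors' values. *Rpl5* and *Rpl11*, which with 5S rRNA bind MDM2 when ribosome assembly stalls, gave 0.17, 0.16 and 0.27, none with an unadjusted p under 0.05. These were -0.06, 0.02 and -0.06 with the authors' values, and the *Rpl5* probes gave 0.05 and 0.02 without NEXN-WT 2.

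Lists of members with a shared site or disease gave like values. Around the mRNA channel and decoding centre (14 tested probes of 8 genes) 2 probes were higher and 0 lower, with a median of 0.24 that was 0.12 without NEXN-WT 1. At the exit tunnel (20 probes of 9 genes) 2 were higher and 0 lower, with a median of 0.17, and among genes of Diamond-Blackfan anaemia (19 probes of 9 genes) 2 were higher and 0 lower, with a median of 0.21. The shares of higher probes were 14.3%, 10% and 10.5%, against 10.5% of all tested probes. The medians were -0.08, -0.06 and -0.04 with the authors' values.

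NEXN-S437E 1, which shared its slide row with the control arrays, differed from the rest of its group for part of the family. NEXN-S437E 1 was the lowest array of its group for 86 of the 172 probes, but the highest of all 6 arrays for 64. Every NEXN-S437E array lay above every NEXN-WT array for 36% of the members, against 18.7% of all tested probes. For 43 of the 172 probes (25%), against 7.63% of all tested probes, NEXN-S437E 2 and 3 lay above all NEXN-WT arrays and NEXN-S437E 1 did not. The part of the family's general rise in this count was not tested, and no such count is given with the authors' values. The clearest case, chosen after the values were seen, was *Rpl23a*, an exit tunnel protein, whose probe at chr11:77995006-77995065 read 4.48, 4.54 and 3.91 in NEXN-WT and 3.27, 5.27 and 4.81 in NEXN-S437E. NEXN-S437E 1 was the lowest array of all, and the fit gave 0.14 without and -1.04 with the slide row as a block. That block leaves only NEXN-S437E 1 against the control arrays. The neighbouring probe, at chr11:77994946-77995005, read 6.06, 6.17 and 6.22 against 6.22, 6.60 and 6.44, without that low value. A like contrast stood between the *Rps18* probe A_51_P287677, with 7.15 on NEXN-S437E 1 against 8.34 and 8.10 on the others of its group, and the adjoining probe A_55_P2135632, with 6.90 against 6.79 and 6.75. Slide row and animal cannot be told apart for NEXN-S437E 2 and 3.

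Of the 58 genes with several tested probes, the log2 fold changes of one gene lay 0.5 or more apart in 3, *Rps20*, *Rpl36al* and *Rps24*. For *Rps24* the outlying probe (-0.33) was dim and well above background on 4 arrays only, its value was -0.02 without NEXN-WT 1, and the others gave 0.10, 0.22 and 0.16. The dim probe of *Rps9* (-0.18), *Rpl30* (-0.12) and *Rpl13a* (-0.12) were the remaining members among the largest decreases, and *Rps10* (0.42) the remaining one among the 8 largest increases of probes well above background on all 6 arrays, none with an unadjusted p under 0.05.

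Ribosomal protein genes have many processed copies in the genome, and a 60-base probe can read them. For *Rps27* and *Rpl13*, 3 tested probes lie on another chromosome than the RefSeq promoter of the gene, and *Rpl13*, *Rpl36* and *Rps29* have probes on several chromosomes, so these values are uncertain as to their source.

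The mitochondrial ribosome, a separate particle that makes the few proteins encoded by mitochondrial DNA, is the closest family on the array by role. Of its 104 tested probes, 35 were higher (33.7%) and 0 lower at an unadjusted p under 0.05, against 10.5% and 6.7% of all tested probes, and 0 passed the adjusted p in limma. Their median was 0.41 (0.23 without NEXN-WT 1), and 103 of 104 were positive. With the authors' values the median was 0.27, with 16 higher and 0 lower (7.65% and 8.12% of all tested probes), where the cytosolic family had -0.04, 0 higher and 2 lower. The median deviation of the mitochondrial minus that of the cytosolic family was -0.31, -0.01 and 0.05 in NEXN-WT and 0.09, 0.10 and 0.09 in NEXN-S437E. The groups did not overlap in this difference, whose mean was 0.19 higher in NEXN-S437E, 0.08 without NEXN-WT 1 and 0.30 with the authors' values. The largest increase, *Mrpl40* at 0.87, again had its lowest value on NEXN-WT 1 (0.01, against 2.04 and 2.07 in NEXN-WT and 2.18 to 2.35 in NEXN-S437E).

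**Figure D4:**
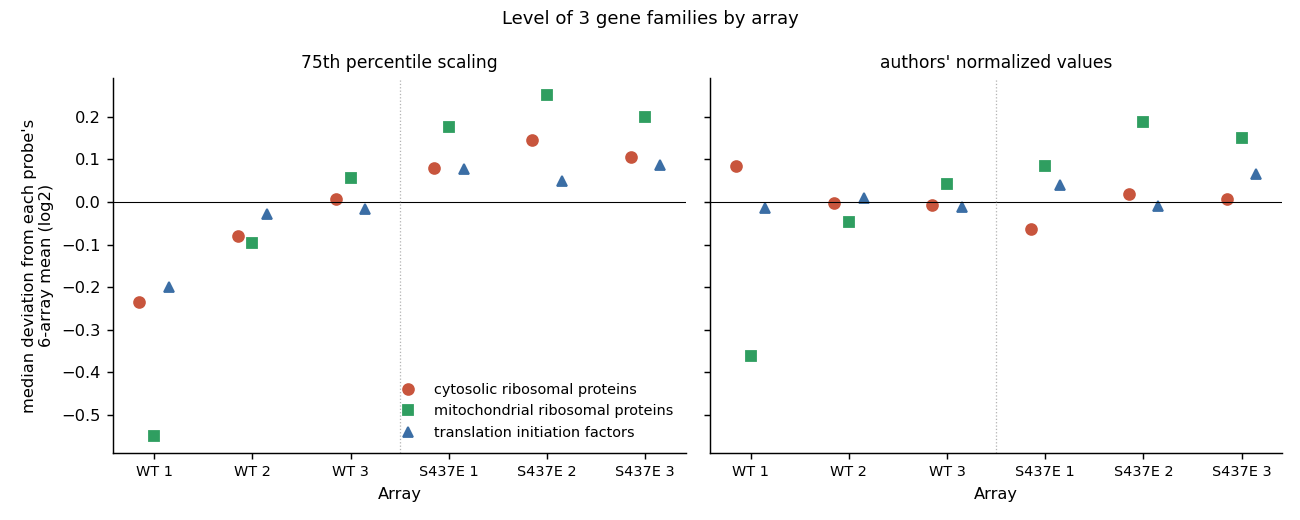
Median deviation from each probe's mean over 6 arrays (y axis, log2) for cytosolic ribosomal proteins (circles), mitochondrial ribosomal proteins (squares) and translation initiation factors (triangles) on each array (x axis), after 75th percentile scaling (left) and with the authors' normalized values (right). The cytosolic family runs from -0.24 on NEXN-WT 1 to 0.15 on NEXN-S437E 2 on the left and shows no separation of the groups on the right, where the mitochondrial family still lies higher on the NEXN-S437E arrays.

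Initiation factors, and elongation factors with other TOP mRNAs, had medians between 0.09 for all tested probes and 0.22 for the ribosomal proteins. With the authors' values the median was 0.02 for all tested probes and -0.04 for the ribosomal proteins. Without NEXN-WT 1 these were 0.05 and 0.16. No test compared these lists. Of 73 tested probes of initiation factors, 4 were higher (5.48%, against 10.5% of all tested probes) and 0 lower at an unadjusted p under 0.05, with a median of 0.18 (0.05 with the authors' values and 0.08 without NEXN-WT 1). *Eif1*, which guards start codon choice, was highest at 0.49 and a dim *Eif2s2* probe lowest at -0.31. Of 30 probes of elongation factors and other TOP mRNAs, 1 was higher (3.33%) and 0 lower, with a median of 0.12 (-0.10 and 0.04 under the same alternatives), from an *Eef1a1* probe at -0.55 to *Tpt1* at 0.41.

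The elongation factor paralogs were set beside *Rpl3* and *Rpl3l* because muscle also exchanges *Eef1a1* for *Eef1a2*. *Eef1a2* read 3.64, 4.59 and 4.65 in NEXN-WT and 5.08, 4.71 and 4.52 in NEXN-S437E, with overlap, NEXN-WT 1 lowest and a log2 fold change of 0.48 (0.15 without NEXN-WT 1 and 0.33 without NEXN-S437E 1). The *Eef1a1* probes gave -0.55 and 0.14 and so differed in sign. None of these probes had an unadjusted p under 0.05.

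Genes that build ribosomes or set their amount were read against the same 10.5% of higher probes. Of 47 probes of biogenesis factors 2 were higher (4.26%) and 0 lower, with a median of 0.13, and the extremes were *Ltv1* at 0.46 and *Rrp1b* at -0.22. Of 22 probes of RNA polymerase I and its factors 1 was higher (4.55%) and 0 lower, with a median of 0.11 (0.07 without NEXN-S437E 1 and without NEXN-S437E 2), and the higher one was *Rrn3*, the factor that ties the polymerase to growth signals, at 0.38. Of 21 probes of growth control genes 3 were higher (14.3%) and 0 lower, with a median of 0.15, from *Myc* at -0.53 to *Tsc2*, an inhibitor of mTOR signalling, at 0.44. These medians were 0.08, 0.09 and 0.12 in the authors' table.

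Of 13 probes of p53 targets, 0 were higher and 2 lower (15.4%, against 6.7% of all tested probes). *Gdf15*, a stress hormone that is also under other control, read 3.72, 1.48 and 1.42 in NEXN-WT and 0.25, -0.49 and -0.37 in NEXN-S437E. It was lower by 2-fold or more with an unadjusted p under 0.05, at -2.41 ± 0.57 (SE, adjusted p = 0.13 in limma), and at -1.65 without NEXN-WT 1, its highest array. The median of the list was -0.12, and it was -0.20 with the authors' values, which gave 3 lower probes, -0.19 with the percentile over detected probes, -0.01 with normexp and -0.22 without NEXN-WT 3. *Ccng1* was the highest probe at 0.26.

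**Figure D5:**
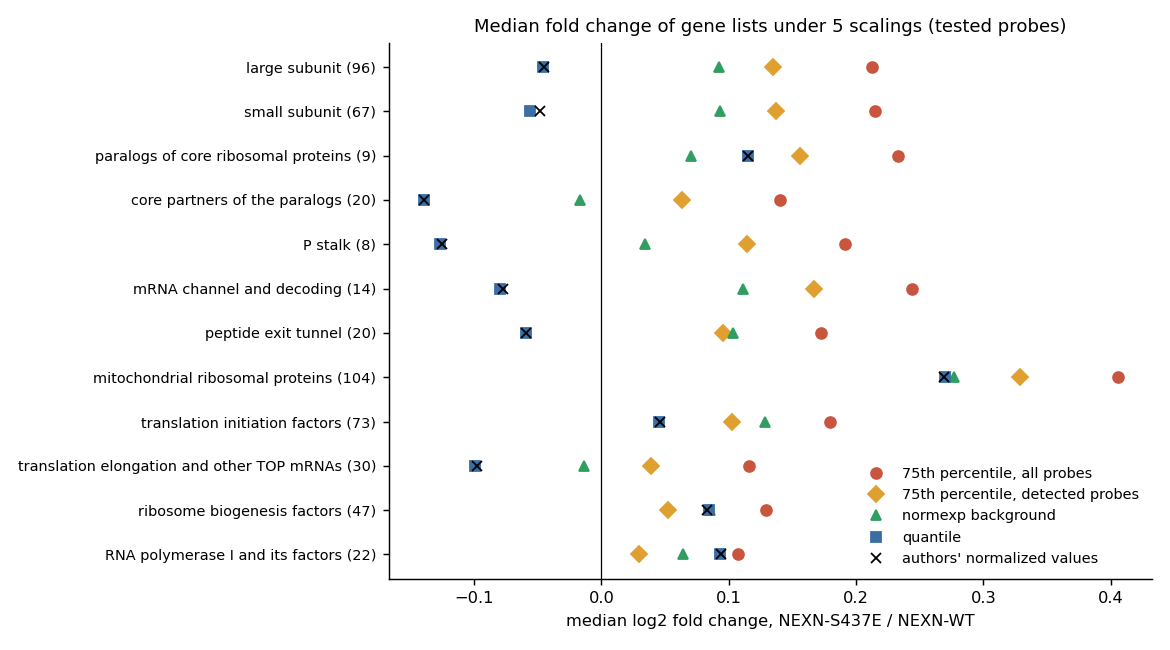
Median log2 fold change (x axis, NEXN-S437E over NEXN-WT) of gene lists of the translation machinery (y axis, with the number of tested probes) under 5 scalings. Both subunits move from 0.21 to -0.05 between the 75th percentile scaling and the authors' normalized values, and the mitochondrial ribosomal proteins stay above 0 under each scaling, between 0.27 and 0.41.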

How the data were processed

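The authors hybridised Cy3-labelled RNA of 6 hearts to Agilent SurePrint G3 Mouse v2 8x60K arrays and extracted them with Agilent Feature Extraction 10.7.1.1 (per the labels). The deposited intensities are background-subtracted on a linear scale. A second deposited file gives the authors' own normalized values on the log2 scale. Sorted, its 6 columns are the same, as after quantile normalization. The normalization software is not given in the sources used here.

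Control and outlier spots were left out, the 75th percentile of each array was subtracted from log2 signals, and spots of a probe were averaged. Tests were made in limma 3.58.1 (R 4.3.3), with Benjamini-Hochberg adjustment over 22998 probes that passed background on every array of one group or of both. With 3 arrays a group, the number of arrays limits the precision. Named were the 8 largest increases and decreases among members well above background on all 6 arrays, paralogs with partners, stalk and 5S proteins, genes whose probes lie 0.5 or more apart, and the extremes of each list. Other named probes were chosen after their values were seen. Members and lists were chosen with earlier results of these data known. Gene names are those of the array annotation. Some results are not reported here.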

Additional observations from a re-analysis of the deposited data

How the results depend on the processing

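No ribosomal protein probe passed the adjusted p under any alternative. The count past 2-fold with an unadjusted p under 0.05 was 0 and became 1 higher with no filter on dim probes (an *Rps15a* probe below background on every array) and with array weights (*Rpl36al*), and 1 lower with the slide row as a block (*Rpl23a*). Leaving out single arrays gave 0 to 2 higher and 0 lower. The count of 14 higher at an unadjusted p under 0.05 was 0 with quantile normalization and with the authors' values, 3 with normexp and with the percentile over detected probes, 2 with no filter, 1 with the slide row as a block, 34 with array weights, 26 with the methods' t-test, 7 with 1 probe per gene and 1 to 25 when single arrays were left out. Of all probes tested 7.67% and 7.65% were higher with the first 2 of these settings, 11.1% and 7.89% with the next 2, and 10.2%, 4.56%, 14%, 8.5% and 10.9% with the others up to 1 probe per gene. The count of 0 lower became 2 with quantile normalization, normexp, the authors' values, the slide row as a block and the methods' t-test, and 1 with the percentile over detected probes, the intensity trend and array weights, and stayed at 0 when single arrays were left out. Of all probes tested 8.13%, 6.54%, 8.12% and 5.16% were lower with quantile normalization, normexp, the authors' values and the methods' t-test. These shares were 8.54%, 6.66% and 8.77% with the percentile over detected probes, the intensity trend and array weights. The median log2 fold change of 0.22 turned to -0.044 with quantile normalization and with the authors' values and was 0.092 with normexp. With no filter the median of all probes rose from 0.09 to 0.28, above the members' 0.21. The cause of these shifts was not tested. Replicate numbers did not pair the samples (correlations of -0.16, -0.02 and -0.20 between arrays of the same number over 21099 probes), and with the replicate number as a block 4 probes were higher at an unadjusted p under 0.05 (8.16% of all tested probes), 0 were lower and the median was 0.22. Of the 51 single probes, 5 had an unadjusted p under 0.05, and 44 of their 91 values under the alternatives lost it (*Rpl36al*, *Rps20*, *Rplp1*, *Rpl35* and *Rps29*), while 34 of 849 values of the other probes gained it, and no value past that threshold changed sign. Without 1 array or another, 39 of the 51 fold changes moved by over 1.5 times on the log2 scale and 6 changed sign. With 3 arrays a group and 13 of 185 probes not tested for their low signal, small differences could not be resolved.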
